A study of Homo sapiens with 7 samples.

Results

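The long arm of chromosome 3 carried a long, dense field of called peaks in HT1080 cells, a line derived from a human fibrosarcoma. Its members were all peaks of the 7 deposited lists on chromosome 3 with a midpoint at or above position 105000000 of the human genome build hg19. They numbered 22819 of the 148917 peaks in all lists. The members were chosen by the number of peaks per megabase in earlier results of the same data, so their density is given as a description, without a test.

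The cells had been transfected with siRNA, a short RNA that silences a gene, directed at VRK1 (siVRK1), or with a non-targeting siRNA (siControl). Chromatin of fixed, sonicated nuclei was precipitated with antibodies against histone H2A phosphorylated at threonine T120 (pT120) or ubiquitylated at lysine K119 (ubK119) under both siRNAs, and against VRK1 in siControl cells. Input DNA, which is chromatin sequenced without precipitation, was profiled under both siRNAs. Each of the 7 libraries was the only one of its kind, all came from 1 cell line, and the loss of VRK1 in siVRK1 cells was not measured in these data.

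VRK1 is a nuclear serine-threonine kinase that phosphorylates H2A at T120, a residue next to the lysine K119. Ubiquitin at K119 is placed by Polycomb repressive complex 1, usually over stretches that hold silenced developmental genes. A peak is a stretch where reads pile up above a threshold, and peaks of input DNA mark such stretches where no antibody was used.

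Library totals, obtained from the deposited heights, ranged between about 20687000 reads for siControl pT120 and 40443000 for siControl ubK119, with 36031000 for siVRK1 pT120. A count of 3 reads in a region, the limit that a count of 0 allows, corresponded to 0.0742 to 0.145 RPM (reads per 1000000 reads of the library). The lowest peak height accepted was 12 to 18 reads per library, so the lists differ in both depth and threshold. All intervals are 95% intervals for counting error alone, and PCR copies make reads less independent than they assume. Since no condition was repeated, no test was made, and each comparison sets 1 library against another.

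The members made up 22.5% of the siVRK1 pT120 list (9554 peaks) and 9.20% of the siControl pT120 list (613 peaks). They made up 6.85% of the siVRK1 ubK119 list (946 peaks), 9.56% of the siControl ubK119 list (2767 peaks) and 14.5% of the siControl VRK1 list (2534 peaks). In the inputs the shares were 15.4% after siVRK1 (3306 peaks) and 17.2% after siControl (3099 peaks). The 2 inputs, which saw no antibody, thus held larger shares of their peaks here than 4 of the 5 antibody libraries, and only siVRK1 pT120 held more.

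The edges were sought in the inputs in steps of 1 Mb. A bin was dense when it held at least 2 times the median of the chromosome 3 bins below the member limit, which meant 6 peaks in the siVRK1 input and 4 in the siControl input. The longest run dense in both inputs, allowing up to 2 other bins in a row, spanned 104 to 198 Mb, a block of 94 Mb with 88 dense bins and 6 others. The block therefore reached the last bin of the chromosome with peaks, while the bins of the long arm nearest the centromere lay outside it. Run over every chromosome with the same thresholds, the rule gave 169 runs, of which 61 were at least 5 Mb long, and the chromosome 3 block was the longest. The next were on chromosome 13, at 35 Mb, and on chromosome 20, at 31 Mb.

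The lower edge was sharpest in siVRK1 pT120. This library had 5 peaks between 102 and 103 Mb, 67 in the next bin, 128 in the first bin of the block and 122 in the first bin of members above it. A single split of the window between 100 and 108 Mb placed the step at position 103554648, with 492 peaks above it (110.7 per Mb) and 27 below it (7.60 per Mb). The inputs stepped less steeply, with 5 siVRK1 input and 2 siControl input peaks between 103 and 104 Mb, 10 and 11 in the next bin, and 12 and 21 in the one after. The member limit lies 1 bin inside the dense field. The siVRK1 pT120 peak just inside it (chr3:105006780-105007007) was 12 reads high, and the one just outside (chr3:104998676-104999033) was 13 reads high. At the other end, the bin between 197 and 198 Mb still held 58 siVRK1 input and 45 siControl input peaks.

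**Figure D1:**
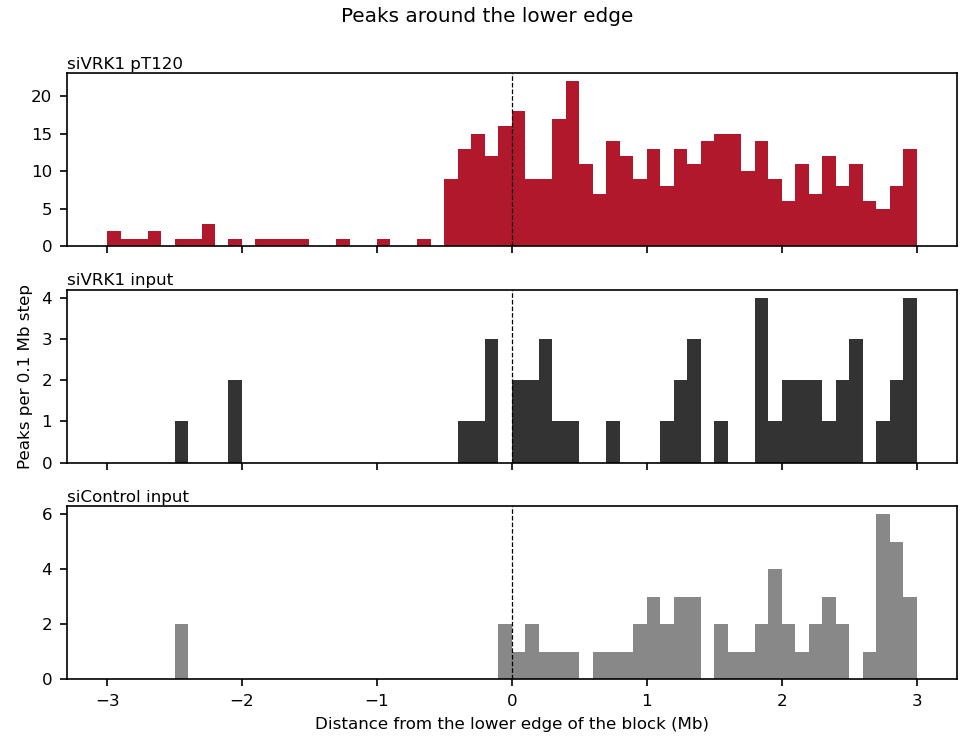
Peaks per 0.1 Mb step (vertical axis) in siVRK1 pT120 and both inputs, against the distance in Mb from the lower edge of the block (dashed line). The siVRK1 pT120 peaks step up within 1 bin of 1 Mb below the edge, with 110.7 peaks per Mb above the best split and 7.60 below it, and the inputs climb more slowly.

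Peak density in the block was above that of the rest of chromosome 3 in all 7 libraries. In siVRK1 pT120 it was 103 peaks per Mb in the block, against 11.2 on the rest of the chromosome, a ratio of 9.18 (8.64 to 9.77). In siControl pT120 it was 6.56 against 1.31 per Mb, a ratio of 5.0 (4.14 to 6.07). Both ubK119 libraries had the smallest ratios, 3.02 (2.66 to 3.43) with 10.1 against 3.33 per Mb after siVRK1, and 3.85 (3.55 to 4.17) with 29.5 against 7.67 per Mb after siControl. In siControl VRK1, 27.0 against 3.92 per Mb gave 6.89 (6.20 to 7.68). The inputs, whose peaks set the block, had 35.3 against 5.07 per Mb after siVRK1 and 33.1 against 3.80 per Mb after siControl, ratios of 6.96 (6.34 to 7.65) and 8.70 (7.82 to 9.69).

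Most block peaks were close to the lowest height that their library accepted. In siVRK1 pT120, 50.8% of block peaks had the lowest accepted height of 12 reads, and 95% were no higher than 15 reads. In siControl pT120, 60.1% of block peaks were at the lowest height, and in the other libraries the share was 33.2% to 51.7%. Counting only peaks of at least 18 reads, the lowest height in the siVRK1 ubK119 list, left 74 siVRK1 pT120 peaks in the block and 43 on the rest of the chromosome. For siControl pT120 it left 4 in the block and 20 on the rest, so that the block was then the sparser of the regions, with a ratio of 0.217. All 946 siVRK1 ubK119 peaks of the block met this height, as did the 340 on the rest. In siControl ubK119, 507 block peaks and 146 on the rest did, and in siControl VRK1 198 and 62. The siVRK1 input kept 296 block peaks against 62 on the rest, while the siControl input kept 37 against 30. At this 1 read count the surplus thus stood at 1.87 for siVRK1 pT120 and at 5.18 for the siVRK1 input. It stood at 1.34 for the siControl input, whose interval included 1. The count was not scaled to depth. A height of 18 reads is a different RPM in each library, so these values are not set at 1 common RPM.

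**Figure D2:**
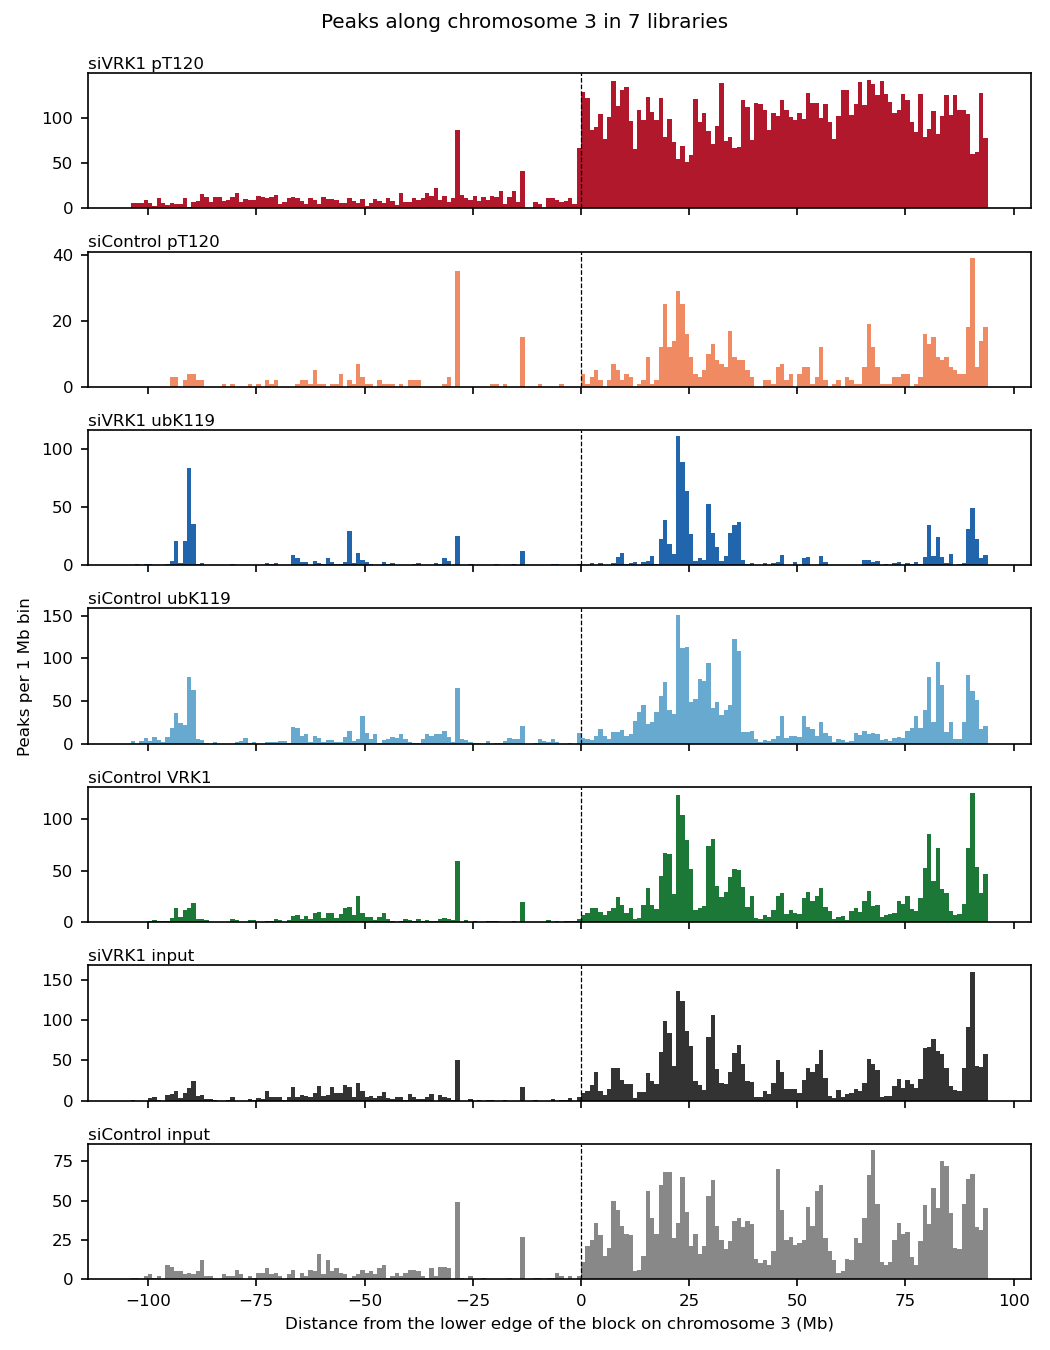
Peaks per 1 Mb bin (vertical axis, own scale for each library) against distance in Mb from the lower edge of the block on chromosome 3, with 1 panel for each of the 7 libraries. Bars are counts of called peaks: siVRK1 pT120 stays between 51 and 142 peaks per bin to the right of the dashed edge, and the other 6 libraries vary more from bin to bin along the block.

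Within called regions, input reads per kb were little higher in the block than on the rest of chromosome 3. They were counted in regions called with an antibody, so that the inputs did not choose them. Each region had passed a read threshold in some library, so these values cannot show the input level over the whole block. The median region had 5 siVRK1 input reads in the block and 4 on the rest, and 5 and 3 siControl input reads. The siVRK1 input had 0.733 RPM per kb in the block, against 0.671 on the rest of chromosome 3, which is 1.09 times (1.07 to 1.11). The siControl input had 0.737 against 0.639 RPM per kb, which is 1.15 times (1.13 to 1.18). Against all other chromosomes the block stood lower, at 0.883 and 0.949 times for the siVRK1 and siControl inputs. In regions called in the other input, the block was at 0.936 and 1.0005 times the rest for the siVRK1 and siControl inputs. The number of DNA copies was not measured.

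The block was the longest run but not the densest. It had 35.3 siVRK1 input and 33.1 siControl input peaks per Mb, against 67 and 49.3 in the 18 Mb run at the start of chromosome 5 and 264 and 278 in a 9 Mb run on chromosome 18. Its 103 siVRK1 pT120 peaks per Mb stood against 93.1 in the chromosome 5 run and 354 in the chromosome 18 run. It had 29.5 siControl ubK119 and 27.0 siControl VRK1 peaks per Mb, against 142 and 62.3 on chromosome 5 and 346 and 246 on chromosome 18. The chromosome 18 run had an input level at antibody regions of 1.31 RPM per kb after siVRK1 and 1.34 after siControl, so the block stood at 0.558 and 0.552 times that run.

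Along the block the siVRK1 pT120 peaks were spread almost evenly. Every one of the 94 bins held between 51 and 142 of them (coefficient of variation 0.215), and 70 bins held more than the highest bin of the rest of chromosome 3, which had 87. No other library was so even. The siVRK1 ubK119 peaks numbered between 0 and 111 per bin (median 3, 26 empty bins, coefficient of variation 1.85), and siControl VRK1 peaks between 2 and 125 (median 17). The siControl pT120 counts ranged from 0 to 39 and the siControl ubK119 counts from 2 to 151, while the siVRK1 and siControl inputs ranged over 3 to 160 and 4 to 82.

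Among the other 6 libraries, 5 had their highest count in 1 of 2 bins, and the siControl input had its highest, 82 peaks, between 171 and 172 Mb. The bin between 126 and 127 Mb held 111 siVRK1 ubK119, 151 siControl ubK119 and 123 siControl VRK1 peaks, with 29 siControl pT120 peaks and 136 and 36 peaks of the siVRK1 and siControl inputs. In that bin siVRK1 pT120 had 55 peaks, near its lowest. The bin between 194 and 195 Mb had the most input peaks, 160 after siVRK1 and 67 after siControl, with 125 siControl VRK1, 39 siControl pT120 and 60 siVRK1 pT120 peaks. The bin between 127 and 128 Mb followed, with 124 and 65 siVRK1 and siControl input peaks, 104 siControl VRK1 and 69 siVRK1 pT120 peaks.

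The bins with the fewest input peaks still held many siVRK1 pT120 peaks. Between 164 and 165 Mb there were 131 siVRK1 pT120 peaks, beside 0 siControl pT120, 0 siVRK1 ubK119, 4 siControl ubK119 and 6 siControl VRK1 peaks and 5 peaks of each input. Between 145 and 146 Mb, 115 siVRK1 pT120 peaks stood beside 0 siControl pT120, 0 siVRK1 ubK119, 2 siControl ubK119 and 3 siControl VRK1 peaks. Between 116 and 117 Mb, 66 siVRK1 pT120 peaks stood beside 0 siControl pT120 and 3 siControl VRK1 peaks, and the inputs had 3 after siVRK1 and 5 after siControl.

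Over the 94 bins, Pearson's r between siVRK1 pT120 and siControl VRK1 peak counts was -0.56 (Spearman's rho -0.37). The inverse relation was not particular to VRK1. For siVRK1 pT120, r was -0.577 with siVRK1 ubK119, -0.582 with siControl ubK119 and -0.386 with siControl pT120. With the inputs it was -0.463 for siVRK1 and -0.0358 for siControl. Between siControl pT120 and siControl VRK1 it was 0.862 (rho 0.832). With the siControl input, the input of their own cells, the VRK1 counts had an r of 0.581 (rho 0.770) and the siControl pT120 counts one of 0.640 (rho 0.745). With the siVRK1 input, r was 0.945 for VRK1 and 0.899 for siControl pT120, and between the inputs it was 0.723. Bins are neighbours on 1 chromosome, and every count in a library shares that library's depth and threshold, so the coefficients describe these libraries only. The VRK1 and siControl pT120 profiles thus moved with those of the inputs, more with the siVRK1 than with the siControl input, and the part of the input profiles in them was not tested.

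**Figure D3:**
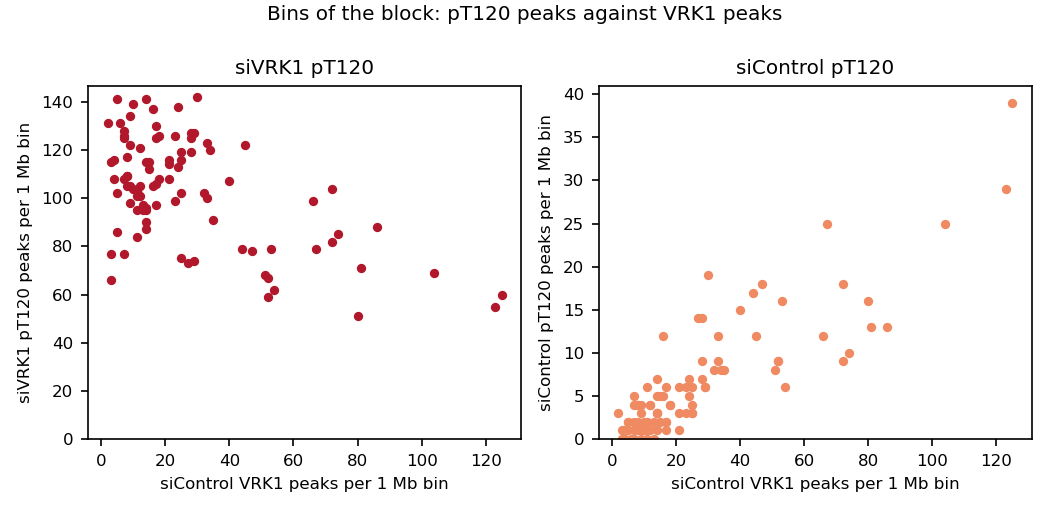
Each point is 1 of the 94 bins of the block, with siControl VRK1 peaks per bin on the horizontal axis and pT120 peaks per bin on the vertical axis, siVRK1 at left and siControl at right. Bins with more VRK1 peaks tend to have fewer siVRK1 pT120 peaks (r -0.56) and more siControl pT120 peaks (r 0.862). The siVRK1 pT120 counts also fall with ubK119 peaks, not shown here (r -0.577 for siVRK1 and -0.582 for siControl). No bin has fewer than 51 siVRK1 pT120 peaks or more than 39 siControl pT120 peaks.

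The siVRK1 pT120 peaks of the block were seldom shared with another library. Of the 9682 siVRK1 pT120 peaks in the block, 9280 (95.8%, 95.4 to 96.2) overlapped no peak of another library by even 1 bp, against 92.4% on the rest of chromosome 3 and 82.5% on other chromosomes. In the other 6 libraries the share of block peaks found in no other library was lower, between 54.1% for siVRK1 ubK119 and 77.6% for siControl ubK119. Of the siVRK1 pT120 peaks, only 16 (0.165%) overlapped a siControl pT120 peak, compared with 3.32% on the rest of chromosome 3 and 7.57% on other chromosomes. The block held only 617 siControl pT120 peaks, which limits this share. Of those 617, 15 (2.43%) overlapped a siVRK1 pT120 peak, against 30.6% on the rest and 43.4% on other chromosomes. Overlap of siVRK1 pT120 peaks with the input of the same siRNA was 0.661% in the block, against 4.37% on the rest of chromosome 3 and 11.1% on other chromosomes. For siControl pT120 the share was 10.0% in the block, against 30.6% on the rest and 48.4% on other chromosomes. It was 4.0% for siControl ubK119, against 7.29% and 15.1%, and 9.05% for siControl VRK1, against 16.2% and 26.4%. For siVRK1 ubK119 the share was 20.8% in the block (18.3 to 23.6), above the 15.6% (11.9 to 19.9) of the rest, with overlapping intervals, and below the 27.3% of other chromosomes. The inputs themselves shared 12.1% of siVRK1 input and 13.0% of siControl input peaks in the block, against 13.0% and 18.04% on the rest of chromosome 3 and 24.0% and 30.6% on other chromosomes. The rule placed the block where both inputs were dense, and within it their peaks lay mostly at different positions.

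Antibody reads were then set against the input of the same siRNA, in regions from the lists of the other libraries. Some of these regions also overlap peaks of the libraries compared. For siVRK1 pT120 the RPM ratio was 0.581 in the block, against 0.604 on the rest of chromosome 3, so that the block stood at 0.961 times the rest (0.933 to 0.990). For siControl pT120 it was 0.925 against 1.006, a quotient of 0.920. For siVRK1 ubK119, 0.956 against 1.12 gave the lowest quotient, 0.853, and for siControl ubK119, 0.889 against 0.955 gave 0.931. For siControl VRK1, 0.960 against 1.05 gave 0.915. In none of the 5 libraries was the ratio of antibody to input higher in the block than on the rest of chromosome 3 under this choice of regions. Outside input peaks, however, the quotient for siVRK1 pT120 was 1.06, and in regions of the other input that for VRK1 was 1.0006.

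The ratios differed widely with the list that supplied the regions. Over single lists, the ratio of siVRK1 pT120 to input inside the block ranged between 0.370, in regions of the siVRK1 ubK119 list, and 0.803, in regions of the siControl ubK119 list. The ratio of VRK1 to input ranged between 0.796, in siVRK1 pT120 regions, and 1.33, in siVRK1 ubK119 regions. The quotient of block over rest had an interval below 1 in 4 of 5 lists for siVRK1 pT120 and siVRK1 ubK119, in 3 for siControl ubK119, in 2 for siControl pT120 and in 1 for VRK1. It had an interval above 1 in 0 of 5 lists for each library. Single bins can weigh heavily on the rest. In VRK1 regions, the bin between 75 and 76 Mb held 28.4 of the 69.3 siVRK1 pT120 RPM of the rest. It held 41.1 of the 119.8 siVRK1 input RPM. The quotients without this bin were not computed. The single lists were examined after the pooled values were seen.

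The siRNAs were compared in the block in regions called in other libraries. Pooled over those lists, pT120 stood at 0.613 times siControl in siVRK1 cells (0.606 to 0.620) in the block, against 0.609 on the rest of chromosome 3. The quotient of block over rest was 1.005 (0.974 to 1.04). In the pooled regions the lower pT120 level after siVRK1 thus differed between the block and the rest by less than counting error. Single lists differed, as given below. Among regions with at least 10 reads over both libraries, pT120 was lower by 2-fold or more in siVRK1 cells in 2393 of 6033 block regions, which is 39.7%, against 39.3% over all chromosomes. It was higher by 2-fold or more in 491, which is 8.14%, against 8.62% over all chromosomes.

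For pT120 the ratio was below 1 in each list, but its size varied. The block ratio was 0.403 in siVRK1 ubK119 regions (0.496 on the rest), 0.480 in VRK1 regions (0.561), 0.498 in siVRK1 input regions (0.561), 0.662 in siControl input regions (0.718) and 0.872 in siControl ubK119 regions (0.862). The quotient of block over rest was 0.855 (0.805 to 0.908) in VRK1 regions and 0.812 (0.753 to 0.877) in siVRK1 ubK119 regions. It was 0.887 (0.839 to 0.937) in siVRK1 input regions and 0.921 (0.866 to 0.980) in siControl input regions. In siControl ubK119 regions it was 1.01 (0.962 to 1.06). In VRK1 regions the rest leaned on few bins. Of its 69.3 siVRK1 pT120 RPM, 28.4 lay between 75 and 76 Mb (ratio 0.680) and 12.7 between 90 and 91 Mb (ratio 1.005). By bin, the median ratio in VRK1 regions was 0.509 over 71 bins of the block and 0.381 over 10 bins of the rest. Quotient and medians thus pointed in opposite directions in VRK1 regions. Regions of the other lists were not taken by bin.

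For ubK119 even the direction depended on the list. The pooled ratio was 1.08 in the block and 1.22 on the rest of chromosome 3. It was 1.68 in VRK1 regions, 1.62 in siControl pT120 regions, 1.63 in siVRK1 input regions and 1.34 in siControl input regions, but 0.614 in siVRK1 pT120 regions (0.721 on the rest). Divided by the ratio of siVRK1 to siControl input in the same regions, these block values were, in that order, 1.46, 1.44, 0.921, 2.56 and 0.714. In siVRK1 and siControl input regions that input ratio was 1.77 and 0.525, as the choice of regions from 1 input favours. The siVRK1 pT120 list holds more of the block's regions than any other list, and so weighs most in the pooled ratio. Outside input peaks the pooled block ratio was 0.830. By region, ubK119 was lower by 2-fold or more in siVRK1 cells in 1865 of 11041 (16.9%), against 12.9% over all chromosomes. It was higher by 2-fold or more in 2685 (24.3%), against 29.8%.

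The inputs differed between the siRNAs in the same lists. Pooled, the siVRK1 input stood at 0.994 times the siControl input in the block and at 1.05 times on the rest. It was at 0.860 times in siVRK1 pT120 regions, 1.15 times in VRK1 regions and 1.295 times in siVRK1 ubK119 regions of the block. Input was lower by 2-fold or more in siVRK1 cells in 895 of 8304 block regions (10.8%), against 8.08% over all chromosomes, and higher in 1102 (13.3%), against 16.4%. The ubK119 and input ratios were thus both below 1 in siVRK1 pT120 regions and both above 1 in VRK1 regions, and the part of the input in the ubK119 ratio was not tested.

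**Figure D4:**
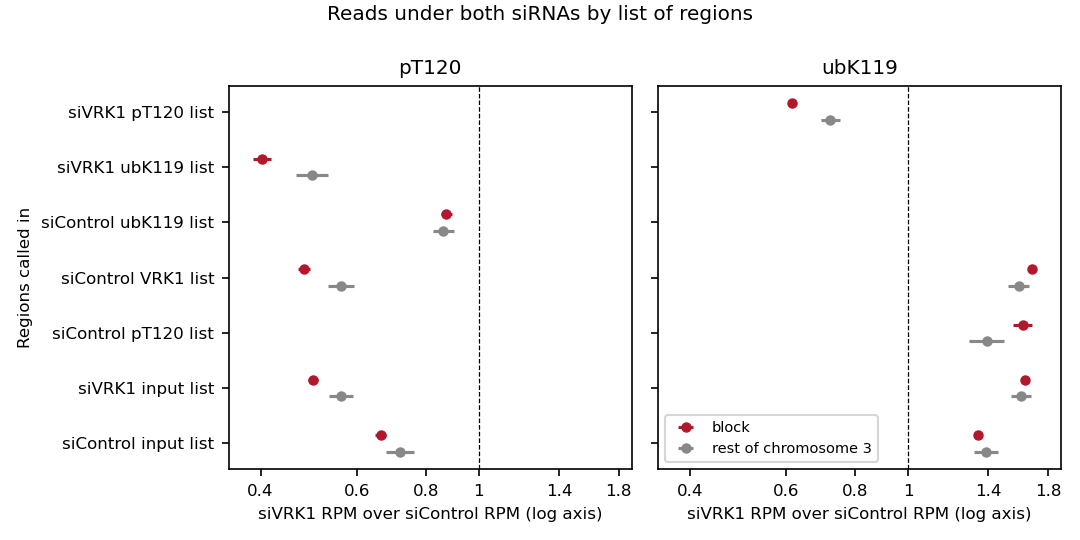
Ratio of siVRK1 RPM to siControl RPM (log axis) for pT120 at left and ubK119 at right, in regions of each list named on the vertical axis, in the block (red) and on the rest of chromosome 3 (grey), with 95% counting intervals. All pT120 points are below 1, between 0.403 and 0.872 in the block, whereas the ubK119 point of the siVRK1 pT120 list (0.614 in the block) is below 1 and the others are above.

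The siRNA ratios in VRK1 regions were also taken by bin. Of the 94 bins of the block, 71 had at least 10 VRK1 regions, as did 10 bins of the rest of chromosome 3. The pT120 ratio of siVRK1 to siControl was below 1 in 71 of 71, between 0.366 and 0.856 (median 0.509), and in 9 of 10 bins of the rest (median 0.381). The ubK119 ratio was above 1 in 71 of 71, between 1.08 and 2.29 (median 1.61), and in 10 of 10 bins of the rest (median 1.82). The input ratio was between 0.695 and 1.41 (median 1.12) and above 1 in 50 of 71, against 9 of 10 on the rest (median 1.19). Over all VRK1 regions of other chromosomes the summed ratios were 0.572 for pT120, 1.54 for ubK119 and 1.11 for input, so the directions were the same outside the block. Bins with more VRK1 peaks had a lower pT120 ratio (Pearson's r -0.53, rho -0.56, 71 bins) and a higher input ratio (r 0.481, rho 0.473), and reads of 1 library enter every bin.

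Only 3 member regions were called in all 7 libraries, which is 0.118% of the block's VRK1 peaks, against 4.75% on the rest of chromosome 3 and 9.45% on other chromosomes. Called in all 5 antibody libraries and no input were 0 VRK1 peaks in the block, 0 on the rest and 29 (0.199%) on other chromosomes. The highest of the 3 regions was chr3:196625470-196625981. It had 3.66 RPM of pT120 in siVRK1 cells and 5.70 in siControl cells, 6.31 RPM of ubK119 in siVRK1 cells and 4.40 in siControl cells, and 5.93 RPM of VRK1. The inputs had 6.98 RPM after siVRK1 and 7.88 after siControl, above every antibody library of the same siRNA. At chr3:183797589-183798151 an input again led, the siVRK1 input with 1.74 RPM, while VRK1 had 1.15 RPM and the siControl input 1.19. At chr3:195830179-195830635 ubK119 was highest, with 1.77 RPM in siVRK1 and 1.61 in siControl cells, against inputs of 0.932 RPM after siVRK1 and 1.08 after siControl. The first region thus had no antibody above its input, and the third had ubK119 at 1.9 (1.20 to 3.06) times input in siVRK1 cells. Near the chromosome's end, chr3:197895663-197896281 was among the highest peaks of the siVRK1 input (1.47 RPM) and was called in every library but siControl pT120.

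The highest siVRK1 pT120 peaks outside input peaks rested on few reads. At chr3:155502608-155502885 siVRK1 pT120 had 21 reads (0.583 RPM), against 1 read in siControl pT120, a ratio of 12.1 with an interval of 1.94 to 499. The siVRK1 input there had 0.0902 RPM, at its limit of 3 reads. At chr3:141119983-141120384 pT120 had 0.777 RPM in siVRK1 and 0.193 in siControl cells, a ratio of 4.02 (1.41 to 15.8), and at chr3:184206920-184207687 it had 1.25 and 0.580 RPM, a ratio of 2.15 (1.12 to 4.47). These regions were chosen for a high siVRK1 pT120 value, so their ratios are a description only. At the first and second of these regions ubK119 had 0 reads in siVRK1 cells, which allows up to 0.10 RPM, against 0.173 and 0.321 RPM in siControl cells.

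The highest siControl pT120 peaks outside input peaks leaned the other way, as their choice favours. At chr3:194717493-194717863 pT120 had 0.139 RPM in siVRK1 and 0.967 in siControl cells, at chr3:126586256-126586628 0.333 and 0.918, and at chr3:111804689-111804942 0.0833 and 0.677. The ubK119 ratio, which did not choose them, was 0.675 (0.208 to 1.94) at the first, 2.55 (1.07 to 6.49) at the second and 3.6 (1.34 to 11.2) at the third.

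The highest VRK1 peaks outside input peaks had under 1 RPM. VRK1 had 0.905 RPM at chr3:194733988-194734389, 0.968 at chr3:197111390-197111801 and 0.780 at chr3:135507223-135507538. Over the siControl input these were 2.70 (1.25 to 6.5), 1.53 (0.821 to 2.95) and 3.50 (1.4 to 10.4) times. The choice of high VRK1 peaks outside input peaks favours values above 1 here, so these are a description only. The pT120 ratio of siVRK1 to siControl had intervals that included 1 at all 3, for example 0.738 (0.245 to 2.33) at the first, so no difference in pT120 was detectable there at this depth.

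The longest named regions carried ubK119, as the choice favours, because regions were named by length from the ubK119 lists only. The longest of all, chr3:128131602-128142132, was 10530 bp and was called in both ubK119 libraries, and shorter peaks of both inputs lay within it. It had 53.1 RPM of ubK119 in siVRK1 and 18.4 in siControl cells, which were 5.30 (4.71 to 5.98) and 2.97 (2.51 to 3.53) times the input of the same siRNA. In the same region pT120 had 2.91 RPM in siVRK1 and 11.0 in siControl cells, and VRK1 had 12.8 RPM, 2.06 times input (1.72 to 2.48). The siVRK1 input had 10.0 RPM and the siControl input 6.21, a ratio of 1.61 (1.33 to 1.95). The ubK119 ratio of siVRK1 to siControl was 2.88 (2.64 to 3.14) and the pT120 ratio 0.264 (0.208 to 0.335), but the bounds of the region came from a ubK119 list.

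The other high or long siVRK1 ubK119 peaks overlapped no input peak, and their choice favours a high ubK119 value in siVRK1 cells. At chr3:133665905-133668594 ubK119 had 8.97 RPM in siVRK1 and 4.72 in siControl cells, 3.18 and 2.12 times input, and pT120 had 1.11 and 3.53 RPM. At chr3:133661059-133662277 ubK119 had 6.04 RPM in siVRK1 and 2.05 in siControl cells, a ratio of 2.94 (2.26 to 3.86), beside an input ratio of 1.07 (0.654 to 1.76). At chr3:133654542-133655773 it had 4.44 RPM in siVRK1 and 2.20 in siControl cells, and at chr3:128127658-128130084 7.11 RPM in siVRK1 and 2.92 in siControl cells. At chr3:126809632-126809992, chosen for a high siControl ubK119 peak and called in the ubK119 libraries only, ubK119 had 0.867 RPM in siVRK1 and 0.915 in siControl cells, a ratio of 0.948 (0.551 to 1.61).

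The siVRK1 ubK119 regions just named lay in 2 clusters of ubK119 peaks. Joining siVRK1 ubK119 peaks of the block that were at most 10 kb apart, a step chosen after the data were seen, gave 470 clusters, of which 75 held at least 3 peaks and 317 held a single peak. The cluster with most peaks, chr3:128118397-128192540, held 40 siVRK1 ubK119 and 48 siControl ubK119 peaks within 74143 bp, with 18 VRK1 peaks, but only 4 siVRK1 input and 2 siControl input peaks. Summed over its siVRK1 ubK119 peaks, ubK119 had 108.4 RPM in siVRK1 and 40.7 in siControl cells, which were 3.91 and 2.48 times input. The cluster and the peaks summed were chosen from the siVRK1 ubK119 list, which favours a high ubK119 value in siVRK1 cells. The sums for pT120 were 9.77 RPM in siVRK1 and 29.5 in siControl cells, 0.352 and 1.8 times input. VRK1 had 35.5 RPM, and the inputs had 27.7 RPM after siVRK1 and 16.4 after siControl.

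The next cluster, chr3:133647642-133699164, held 26 siVRK1 ubK119 and 28 siControl ubK119 peaks. Its ubK119 sums, favoured by the same choice, were 68.8 RPM in siVRK1 and 29.6 in siControl cells, 3.09 and 1.62 times input. The pT120 ratio of siVRK1 to siControl was 0.364. The ratios were also taken in the VRK1 regions inside each of the 5 clusters with most peaks. The clusters were picked for their siVRK1 ubK119 peaks, so these ratios remain a description of chosen places. In the 18 VRK1 regions of the cluster of 40 peaks, ubK119 stood at 2.39 (2.13 to 2.69) times siControl in siVRK1 cells, pT120 at 0.309 and input at 1.54. In the 16 VRK1 regions of the cluster of 26 peaks the values were 2.14, 0.328 and 0.986. In the other 3 clusters the ubK119 ratio ranged between 1.41 (0.996 to 1.99) and 2.54 (1.97 to 3.3), the pT120 ratio between 0.337 and 0.604, and the input ratio between 1.30 and 2.12. The part of the input in the ubK119 ratios was not tested.

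**Figure D5:**
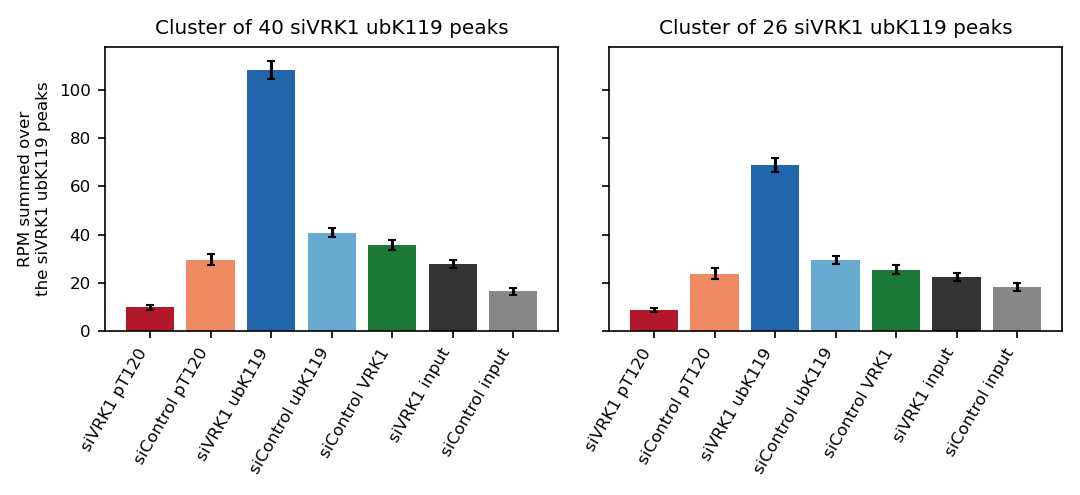
Bars give RPM summed over the siVRK1 ubK119 peaks of the cluster of 40 peaks (left) and of the cluster of 26 peaks (right) in each of the 7 libraries, with exact Poisson 95% intervals. In both, siVRK1 ubK119 is highest (108.4 and 68.8 RPM), as the choice of its own peaks favours, and siVRK1 pT120 lowest (9.77 and 8.63 RPM).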

How the data were processed

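Libraries were amplified over 20 PCR cycles and sequenced for 36 cycles, per the labels' protocols. The build hg19 and the tools Bowtie 0.12.8, CASAVA 1.8.2 and Partek are named, without roles, per the submitters' processing notes. Not given in the sources used here are peak-calling settings, duplicate handling, any use of input as control and whether positions count from 0 or 1. Repeated sequence and PCR copies can raise counts.

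Per the file headers, each list gives a peak's length in bp, its height (a signal: the highest pileup of extended reads), the same height as RPM scaled by the authors to the library total, and a p-value that was not used. The deposited lists also give the read count of all 7 libraries in each region, not normalized, and the percent of a region covered by peaks of each other library. Overlap calls (at least 1 bp) differed from that deposited percent in 0 cases.

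Members and lists were chosen with earlier results of these data known. The block was the run of dense 1 Mb bins reaching above the member limit. Counts were divided by library totals, summed where neither input had over 100 reads in the region, and compared as RPM ratios with exact conditional binomial intervals; quotients of ratios had log-scale Poisson intervals, counts exact Poisson and shares Clopper-Pearson intervals. Of overlapping regions from several lists the longest was kept. The calculation was tested on simulated data. Python 3.11.15, NumPy 2.4.6, pandas 2.3.3 and SciPy 1.17.1 were used.

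Named regions were the 3 highest peaks of each antibody library outside input peaks, the 3 highest of each input, regions called in all 7 libraries or in all 5 antibody libraries alone, the 3 longest ubK119 peaks of each list, and the 3 bins with most and fewest input peaks. Of the 25 distinct regions those that bear on the results are printed. The list of genes planned for the long arm needed an hg19 annotation, which was not used here, so regions are named by position and no sequence is shown. Single lists, clusters and 2 further alternatives were chosen after the data were seen.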

Additional observations from a re-analysis of the deposited data

How the results depend on the processing

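Of 98 recomputed values, 54 stayed within the counting interval of the main value or, for block edges, were equal to it. Another 37 moved further and 7 reversed. Only ratios whose main interval excluded 1 could count as reversed. The cause was not tested unless stated. No paired analysis was possible because each group had 1 library and the labels give no replicate numbers. With no gap allowed the block spanned 117 to 144 Mb, with bins of 0.5 Mb it began at 103.5 Mb, and with a limit of 3 times the median it ended at 161 Mb.

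The ratio of peaks per Mb, block over rest, at heights of at least 18 reads was 1.87 for siVRK1 pT120, 0.217 for siControl pT120 (reversed), 3.47 for VRK1, 5.18 for the siVRK1 input and 1.34 for the siControl input, as fewer peaks remain by construction. For siVRK1 pT120 it was 8.32 with chromosome 3 split at the member limit. It was 9.88 with the rest taken below 100 Mb without 90 to 91 Mb, an alternative chosen after the data were seen. A height of 18 reads is a different RPM in each library.

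Input RPM per kb, block over rest, was 0.936 (siVRK1, reversed) and 1.0005 (siControl) in regions of the other input, 0.958 (siVRK1, reversed) and 1.01 (siControl) with no limit on input reads, and 1.19 (siControl) against the rest below 100 Mb. Within called regions, the block's input level is thus not shown to be higher than the rest, and the level between these regions was not measured.

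Antibody over input, block over rest, in regions of the other input was 0.916 for siVRK1 pT120, 0.966 for siControl pT120, 0.940 for siVRK1 ubK119 and 1.0006 for VRK1 (reversed). Outside input peaks it was 1.06 for siVRK1 pT120 (reversed), 0.810 for siVRK1 ubK119, 0.899 for siControl ubK119 and 0.872 for VRK1. Over the input of the other siRNA the values were 0.911 and 0.977 for siVRK1 and siControl pT120, 0.830 and 0.957 for siVRK1 and siControl ubK119, and 0.964 for VRK1. For siVRK1 pT120 the value was 1.006 against the rest below 100 Mb (reversed) and 0.749 in VRK1 regions, where siVRK1 ubK119 had 0.909. The rest in VRK1 regions leaned on the bin between 75 and 76 Mb, which was not left out.

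The siVRK1 to siControl ratio in the block was, for pT120, 0.668 outside input peaks, 0.593 over input and 0.480 in VRK1 regions. For ubK119 it was 0.830 outside input peaks (reversed), 1.11 over input and 1.68 in VRK1 regions, and for input 1.15 in VRK1 regions. The VRK1 regions alone were chosen after the data were seen. Overlap with the same siRNA's input at 50% of the peak was 0.300% and 6.0% for siVRK1 and siControl pT120, 11.9% and 2.20% for siVRK1 and siControl ubK119, and 5.71% for VRK1. Depth limits single regions most: a peak of 12 reads carries a wide counting interval.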

Other observations

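The rest of chromosome 3 had dense bins of its own. Between 75 and 76 Mb there were 87 siVRK1 pT120, 35 siControl pT120 and 59 siControl VRK1 peaks. Between 13 and 14 Mb there were 84 siVRK1 ubK119 and 78 siControl ubK119 peaks, the highest ubK119 counts of the chromosome outside the block.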
